A study of Mus musculus with 10 samples.

Results

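The genes described here are 35 cyclins, cyclin-dependent kinases (CDKs), CDK inhibitors, DNA replication factors and mitotic genes, taken by their symbols from the deposited count table. All 35 were found, each on 1 row, among the 38355 genes of the table. They fall into 6 roles, which are 4 genes for the D-type cyclins and CDK4, 3 CDK inhibitors, 6 genes for the E, A and B cyclins with CDK1 and CDK2, 6 subunits of the replication helicase, 4 genes for the replication clamp and nucleotide supply, and 12 genes of mitosis. The levels were measured by RNA sequencing of adult cardiomyocytes, the contracting cells of heart muscle, isolated from FVB/N mice by perfusing the heart through a Langendorff apparatus. Epac1-PLN mice gave 5 libraries, 3 from females (replicates 2, 3 and 4) and 2 from males (replicates 1 and 5). Wildtype mice gave the other 5, 3 from females (replicates 3, 4 and 5) and 2 from males (replicates 1 and 2). Epac1-PLN is a transgene for a fluorescent sensor expressed in the heart, whose name joins Epac1, which binds cAMP, with PLN, phospholamban, the brake on the calcium pump. All mice were untreated, and each library is labelled a biological replicate. Neither the age of the mice nor the promoter that drives the transgene is stated in the labels.

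A cell enters the cycle when D-type cyclins with CDK4 or CDK6, and then cyclin E with CDK2, phosphorylate the retinoblastoma protein and release E2F transcription factors. E2F factors switch on the genes for replication, and later in the cycle a complex that binds a promoter element called CHR switches on the genes for mitosis. Cardiomyocytes of adult mice have for the most part left the cycle, whereas endothelial cells, fibroblasts and leukocytes of the heart can still divide. Counts from a bulk library do not say which cells a transcript came from, and fewer cells of a type cannot be told apart from less RNA per cell.

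The promoters show what these genes share in sequence. RefSeq windows of 300 bases (250 before and 50 after the transcription start, GRCm38.p6) were found for 28 of the 35 genes. Aurkb, Ccna2, Ccnd1, Ccnd2, Cdkn1c, Mcm4 and Tpx2 had none in the table. Ccnd3, Cdkn1a and Mcm7 had 2 windows each, and a gene with more than 1 window counts as a match where any of them holds the element. Both strands were searched for the CCAAT box (CCAAT), the CHR element (TTTGAA) and the E2F site in 4 spellings (TTTGGCGC, TTTCCCGC, TTTCGCGC and TTTGCCGC), and matches of different kinds could overlap. The 5 promoters printed below, 250 bases upstream of the start and 5′ to 3′ on the strand of the gene, stand for the main results. Mki67 and Top2a varied most in level between libraries among the tested genes of mitosis, Cdk1 carried all 3 elements, Mcm6 had the most E2F matches of the helicase genes, and Cenpf went against the other mitotic genes. Capitals mark the matches.
Mki67 (chr7:135716380-135716629, minus strand): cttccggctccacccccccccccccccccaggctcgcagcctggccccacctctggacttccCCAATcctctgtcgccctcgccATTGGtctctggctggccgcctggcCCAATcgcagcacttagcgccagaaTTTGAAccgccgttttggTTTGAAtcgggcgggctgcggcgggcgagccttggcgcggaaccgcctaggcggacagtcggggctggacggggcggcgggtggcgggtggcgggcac
Top2a (chr11:99024190-99024439, minus strand): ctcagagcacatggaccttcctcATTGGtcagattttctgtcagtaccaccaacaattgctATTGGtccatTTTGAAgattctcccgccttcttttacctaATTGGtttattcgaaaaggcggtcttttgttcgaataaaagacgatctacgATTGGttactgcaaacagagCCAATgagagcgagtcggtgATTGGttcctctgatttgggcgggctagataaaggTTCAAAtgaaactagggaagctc
Cdk1 (chr10:69352913-69353162, minus strand): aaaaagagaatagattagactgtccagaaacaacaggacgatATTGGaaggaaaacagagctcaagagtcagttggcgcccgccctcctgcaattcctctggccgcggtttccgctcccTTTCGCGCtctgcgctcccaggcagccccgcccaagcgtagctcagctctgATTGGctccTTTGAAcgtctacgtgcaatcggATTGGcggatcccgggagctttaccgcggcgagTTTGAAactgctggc
Mcm6 (chr1:128359706-128359955, minus strand): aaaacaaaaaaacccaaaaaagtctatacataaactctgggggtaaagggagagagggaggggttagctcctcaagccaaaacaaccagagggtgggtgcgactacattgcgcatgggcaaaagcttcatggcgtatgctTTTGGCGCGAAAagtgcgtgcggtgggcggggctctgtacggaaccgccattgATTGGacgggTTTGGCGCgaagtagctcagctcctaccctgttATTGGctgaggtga
Cenpf (chr1:189688087-189688336, minus strand): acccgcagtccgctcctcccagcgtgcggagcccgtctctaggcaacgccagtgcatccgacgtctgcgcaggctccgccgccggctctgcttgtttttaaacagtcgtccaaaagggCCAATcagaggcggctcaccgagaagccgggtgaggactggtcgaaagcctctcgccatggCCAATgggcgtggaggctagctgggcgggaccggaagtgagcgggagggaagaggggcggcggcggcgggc
Mki67 has 3 CCAAT boxes and 2 CHR elements in this stretch, and Top2a has 6 CCAAT boxes and 2 CHR elements. In Mcm6, 2 of the 3 E2F matches overlap in 1 run, read on opposite strands. Cenpf shows 2 CCAAT boxes in the stretch and a CHR element in the 50 bases after the start.

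By role, the elements were spread unevenly. A CCAAT box was present for 23 of the 28 genes (82.1%), against 41.1% of 27025 genes with a window. The CHR element was found for 11 of the 28 genes (39.3%), against 20.2% of all genes, and 8 of those 11 were genes of mitosis, of which 10 had a window. Both elements in 1 window were found for 11 of the 28 genes (39.3%), against 7.97% of all genes. An E2F match was found for 6 of the 28 genes (21.4%), against 2.6% of all genes. Those were the helicase genes Mcm3, Mcm5, Mcm6 and Mcm7, of 5 with a window, and Cdk1 and Cdk2. These are matches of letters, not sites shown to be bound.

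Across the series, library totals were 10632224 to 15959196 counts in Epac1-PLN libraries and 13266303 to 20983754 counts in wildtype libraries. Rapgef3, the gene for Epac1, was at 1241 to 1741 counts per 1000000 (CPM) in Epac1-PLN libraries and at 10.4 to 15.9 CPM in wildtype libraries, so each library matched its genotype label. A filter on low counts (filterByExpr of edgeR) left 12629 genes for testing. Of the 35 cell cycle genes, 28 passed it, and Cdc20, Birc5, Aurkb, Bub1, Plk1, Ccnb2 and Ccnb1 did not. CPM values here are scaled by the TMM factor of each library. Cardiomyocyte markers were abundant in every library. The 8 markers summed to 79827 to 93036 CPM in Epac1-PLN libraries and to 80542 to 92418 CPM in wildtype libraries, and Myh6, the main cardiac myosin heavy chain, alone was at 27220 to 34030 CPM in Epac1-PLN and 22070 to 31950 CPM in wildtype libraries. Epac1-PLN replicate 4 stood apart for the genes described here, and results that rest on it are given with and without it.

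The D-type cyclins, Cdk4, the CDK inhibitors and Pcna were the most abundant of the 35 genes, and most mitotic genes were scarce. To compare genes, CPM was divided by the exon length in kilobases, and the mean over the 10 libraries was taken. Cdk4, the kinase partner of D-type cyclins, led with 13.8 CPM per kilobase, and its libraries lay between 12.1 and 14.9. Ccnd2 (cyclin D2) followed with a mean level of 11.0, Cdkn1b (the CDK inhibitor p27) with 9.82 and Pcna (the sliding clamp of DNA polymerase) with 7.33 CPM per kilobase. The ranges of Cdk4, Ccnd2 and Cdkn1b over libraries overlapped, so their order is not firm, whereas the lowest Cdk4 library was above every Pcna library (6.77 to 8.22 CPM per kilobase). Next came Ccnd1 (cyclin D1), Cdkn1c (p57), Cdkn1a (p21) and Ccnd3 (cyclin D3), with mean levels of 6.83, 6.53, 4.63 and 4.31 CPM per kilobase. Reads of Cdk4, Ccnd1, Ccnd2 and Ccnd3 can be shared with the overlapping genes Tspan31, Oraov1, 9330179D12Rik and Bysl on the other strand, since no label says whether counting used strand. Pcna also has processed copies in the annotation.

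At the low end stood the gene for survivin, Birc5, a member of the complex that corrects chromosome attachment, at a mean of 0.150 CPM per kilobase. Plk1 (polo-like kinase 1) was at 0.127, Bub1 (a kinase of the spindle checkpoint) at 0.105 and Ccnb1 (cyclin B1, which drives entry into mitosis) at 0.0274 CPM per kilobase. These are very few reads. Ccnb1 had 9 counts in all 5 Epac1-PLN libraries together and 8 in all 5 wildtype libraries, and its counts may be shared with a processed copy. It had 0 counts in Epac1-PLN replicate 2 and in wildtype replicate 5. By counting error this allows up to 0.200 and 0.226 CPM (3 counts over the library total, without the TMM factor). Birc5 had 46 counts over the Epac1-PLN libraries and 32 over the wildtype libraries, Plk1 25 and 17, and Bub1 43 and 27. The ranges of these 4 genes overlapped, so their order is not firm either.

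**Figure D1:**
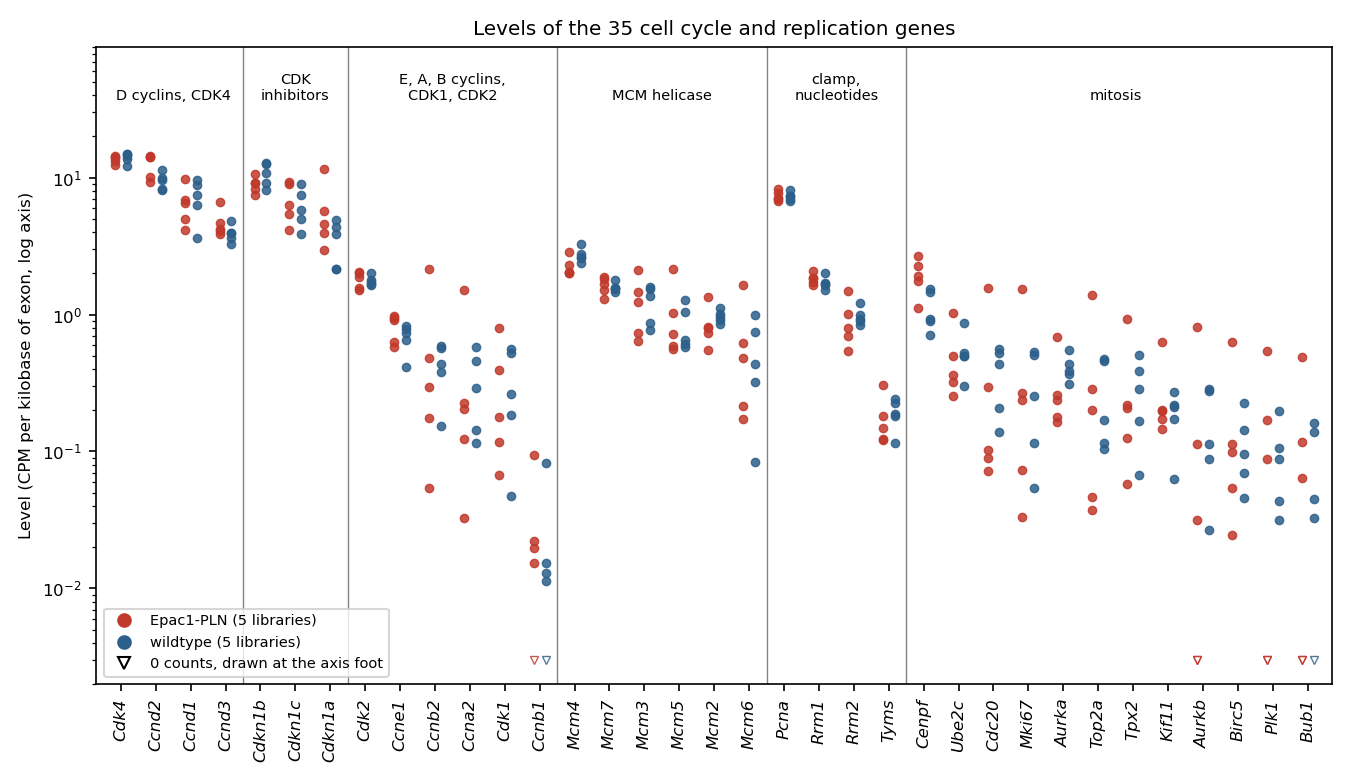
Level of each of the 35 genes in each library, in CPM per kilobase of exon on a log axis, with genes grouped by role and ordered by mean within a role. Points are libraries, 5 Epac1-PLN (red, left) and 5 wildtype (blue, right), and open triangles at the foot are libraries with 0 counts. The D-type cyclins, Cdk4 and the CDK inhibitors lie within a band near the top, while most mitotic genes are low and spread over more than 1 order of magnitude.

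The spread between libraries of a genotype differed by role, and was widest for the genes of mitosis. The coefficient of variation (CV, the pooled SD within genotypes over the mean) was 7.27% for Cdk4 and 7.53% for Pcna, and 9.74% for Rrm1, the large subunit of ribonucleotide reductase. It was 131% for Mki67 (the proliferation marker Ki-67), 128% for Top2a (topoisomerase II alpha, which untangles chromosomes) and 150% for Aurkb (the kinase of the chromosomal passenger complex). Counting error alone would give Mki67 13.3% and Top2a 14.9%, far less than observed, whereas for Pcna it gives 6.15% of the 7.53% seen. The median CV was 121% over the 12 genes of mitosis, 101% over the 6 genes for the E, A and B cyclins with CDK1 and CDK2, 32.8% over the 6 helicase subunits and 19.6% over the D-type cyclins and CDK4. It was 33.1% over the 3 CDK inhibitors and 19.7% over the 4 genes for the clamp and nucleotide supply. Level alone did not order the spread. Cdkn1a, at 4.63 CPM per kilobase, had a CV of 55.9%, and Tyms, at 0.183 CPM per kilobase, had 35.2%.

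For most of the genes the same library was the highest. Epac1-PLN replicate 4 had the highest level of all 10 libraries in 30 of the 35 genes, and in 23 of the 28 tested ones (82.1%). Over all tested genes the same library was the highest in 19.3%. The 5 exceptions were Cdk4, Cdkn1b, Cdkn1c, Mcm4 and Cenpf.

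Mki67 shows the pattern. Its level was 2.69, 0.739, 2.38, 15.5 and 0.333 CPM in Epac1-PLN replicates 1 to 5, and 2.57, 5.32, 5.08, 1.17 and 0.547 CPM in wildtype replicates 1 to 5. Top2a was at 2.60, 0.336, 1.799, 12.5 and 0.416 CPM in the Epac1-PLN libraries, and at 1.52, 4.27, 4.15, 1.04 and 0.937 CPM in the wildtype libraries. For both genes Epac1-PLN replicate 4 lay above every other library, wildtype replicates 2 and 3 came next, and Epac1-PLN replicates 2 and 5 lay below most of the wildtype libraries. Mki67 had 233 counts in Epac1-PLN replicate 4 and 4 counts in Epac1-PLN replicate 5. These genes, and those in the sums below, were singled out after their values were seen.

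Summed over the 11 genes of mitosis other than Cenpf, the level was 10.6, 4.84, 9.25, 52.2 and 4.50 CPM in Epac1-PLN replicates 1 to 5, against 11.0, 21.1, 18.2, 7.77 and 4.69 CPM in wildtype replicates 1 to 5. Epac1-PLN replicate 4 was 5.64 times the median of the other 9 libraries, and 1.99 times with Cenpf included. The helicase subunits Mcm2 to Mcm7, which unwind DNA at the fork, showed a smaller excess in the same library. They summed to 31.4, 27.3, 30.5, 52.2 and 22.6 CPM in the Epac1-PLN libraries and to 31.1, 40.4, 39.4, 30.1 and 28.2 CPM in the wildtype libraries. Within the wildtype group, replicate 2 or 3 was the highest in 32 of the 35 genes. These 2 libraries were picked after their values were seen, and the share over all tested genes was not computed.

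The ratio of Epac1-PLN replicate 4 to the median of the other libraries differed by gene. It was 11.0 for Bub1, 9.27 for Aurkb, 8.19 for Top2a, 7.51 for Cdc20 (the activator of the anaphase-promoting complex), 7.35 for Ccna2 (cyclin A2) and 6.54 for Mki67. Among replication genes it was 3.75 for Mcm6, 3.30 for Mcm5, 1.70 for Tyms (thymidylate synthase), 1.67 for Rrm2 (the small subunit of ribonucleotide reductase) and 1.15 for Pcna. Ccne1 (cyclin E1) and Cdk2, its partner, had ratios of 1.33 and 1.18. For the inhibitors it was 2.96 for Cdkn1a, 1.55 for Cdkn1c and 0.818 for Cdkn1b. Reads of Ccna2, Cdc20, Ube2c (the ubiquitin-conjugating enzyme of the anaphase-promoting complex) and Mcm7 can be shared with the overlapping genes Exosc9, Elovl1, Tnnc2 and Cops6. Those of Ccnb2 and Tyms can be shared with processed copies.

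**Figure D2:**
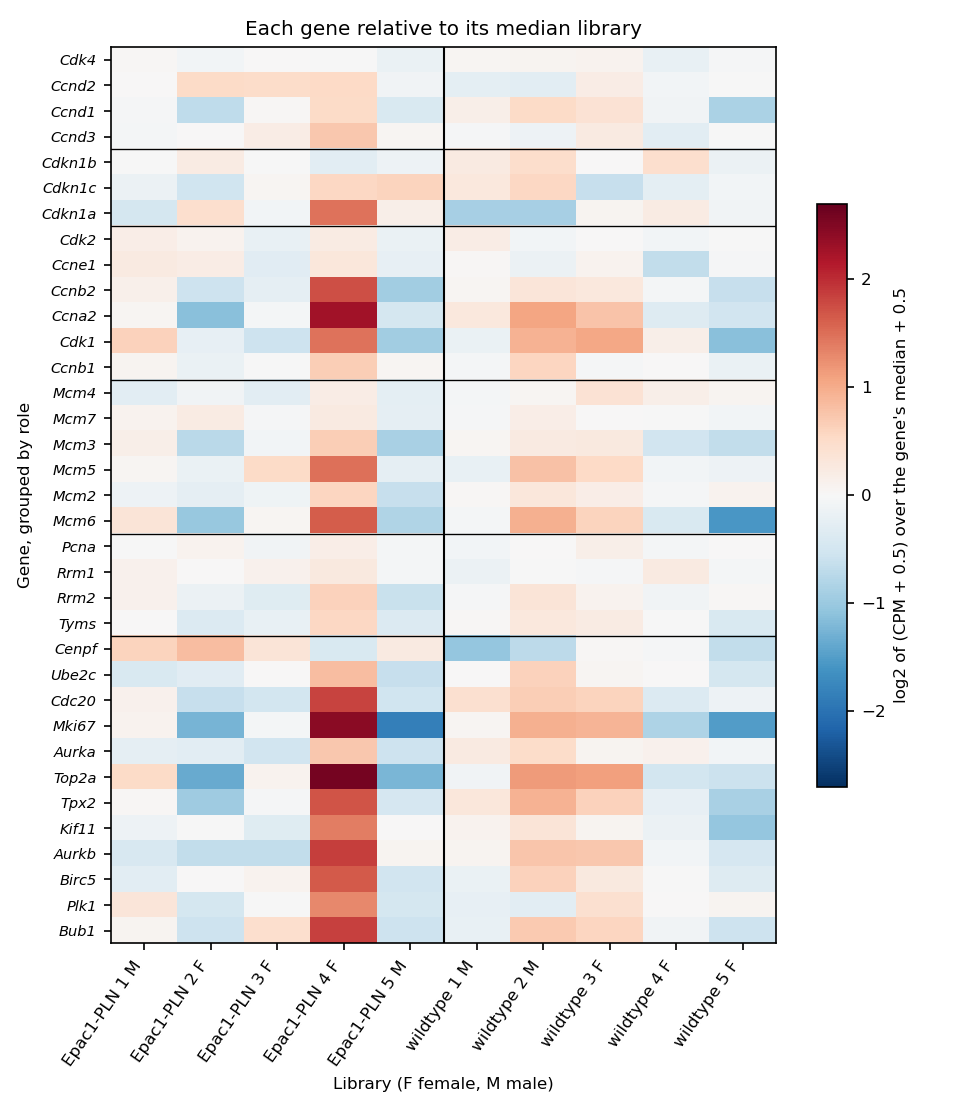
Level of each gene (rows, grouped by role) in each library (columns, Epac1-PLN left of wildtype, with M for male and F for female), as the log2 ratio of CPM + 0.5 to that of the median library. Red is above and blue below the median. The column of Epac1-PLN replicate 4 is red in nearly all mitotic and E, A and B cyclin rows, and wildtype replicates 2 and 3 are red to a smaller degree.

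Sums of markers of most other cell types in the same library were also above the median of the other libraries. Its ratio to that median was 1.54 for the endothelial, 1.26 for the fibroblast and 1.45 for the macrophage and leukocyte list. It was 1.40 for the smooth muscle and pericyte, 2.19 for the lymphocyte and 1.77 for the erythroid list. The neutrophil list, resting on 57 counts in all, went the other way at 0.199. The mitotic genes were at 1.99 over all 12 and at 5.64 without Cenpf, which was set apart after its values were seen. The 9 endothelial markers summed to 843, 608, 807, 1242 and 801 CPM in Epac1-PLN replicates 1 to 5, and to 996, 1153, 835, 657 and 683 CPM in wildtype replicates 1 to 5. Epac1-PLN replicate 4 was the highest library for 6 of the 9, among them Pecam1 (158 CPM, at most 127 elsewhere), Cdh5 (198 CPM, at most 147) and Kdr (183 CPM, at most 166). It was also the highest for 6 of 9 fibroblast markers, which summed to 270 to 453 CPM in the Epac1-PLN libraries and 260 to 474 CPM in the wildtype libraries. In that library Col1a1 was at 40.0 CPM (at most 30.3 elsewhere), Col1a2 at 58.4 (at most 50.3) and Col3a1 at 110.0 (at most 95.4). It was the highest for 4 of 9 tested macrophage and leukocyte markers. The 10 markers of that list in the table summed to 37.5 to 75.8 CPM in the Epac1-PLN libraries and 30.8 to 61.7 CPM in the wildtype libraries. Csf1r was highest there, at 9.003 CPM against at most 7.42 elsewhere, and Cd68 (1.53 CPM) and Ptprc (1.00 CPM) were not.

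Smooth muscle and pericyte markers summed to 451 to 852 CPM in the Epac1-PLN libraries and 305 to 759 CPM in the wildtype libraries, and Epac1-PLN replicate 4 was the highest for 3 of 7, among them Acta2 (408 CPM, at most 388 elsewhere) but not Myh11 or Tagln. The 8 cardiomyocyte markers were at their lowest sum there (79827 CPM), with Tnnt2 the lowest of all libraries at 7024 CPM and Actc1 the highest at 14900 CPM. Lymphocyte markers summed to 0.0642 to 1.13 CPM in the Epac1-PLN libraries and 0.490 to 0.873 CPM in the wildtype libraries, highest in Epac1-PLN replicate 4 and resting on 95 counts in all, with Cd3e at 0 to 0.534 CPM, Cd3g at 0 to 0.194 CPM and Cd4 at 0 to 0.400 CPM over all libraries. Neutrophil markers summed to 0.0667 to 0.999 CPM in the Epac1-PLN libraries and 0.0781 to 0.777 CPM in the wildtype libraries, with S100a8 at 0 to 0.416 CPM, S100a9 at 0 to 0.416 CPM, and Ly6g, Mpo and Elane at 0 counts in every library. The erythroid list summed to 104 to 238 CPM in the Epac1-PLN libraries and 75.7 to 180 CPM in the wildtype libraries, nearly all of it Tfrc, the transferrin receptor, which many cell types express. Tfrc was at 94.2, 133, 205, 235 and 219 CPM in Epac1-PLN replicates 1 to 5, and at 92.9, 177, 172, 91.7 and 71.2 CPM in wildtype replicates 1 to 5. Epac1-PLN replicate 4 was thus the highest library for Tfrc too, but replicate 5, low in the mitotic genes, came next. The erythroid genes other than Tfrc summed to 1.28 to 9.37 CPM in the Epac1-PLN libraries and 0.982 to 8.81 CPM in the wildtype libraries, with a ratio of 0.903 for Epac1-PLN replicate 4 and with Hba-a1 at most 7.70 CPM and Hba-a2 at 0 counts. The part that these cells play in the levels of the cell cycle genes was not tested.

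**Figure D3:**
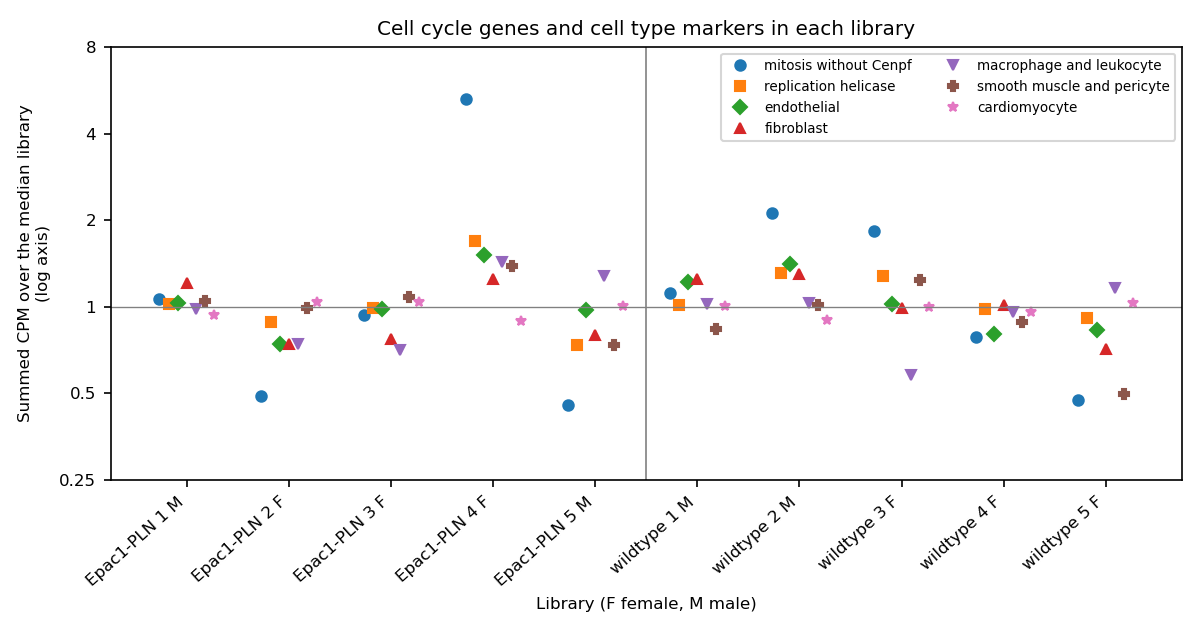
Summed CPM of the mitotic genes without Cenpf, of the replication helicase and of markers of 5 cell types in each library, divided by the median library, on a log axis. Libraries run along the x axis, Epac1-PLN left of wildtype. In Epac1-PLN replicate 4 the mitotic sum is at 52.2 CPM, more than 5 times the median, while the marker sums lie much nearer to their medians.

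The comparison of Epac1-PLN with wildtype cells asked whether carrying the sensor changed the transcriptome of heart muscle cells. Of the 28 tested cell cycle genes, 1 changed with genotype at an adjusted p under 0.05 (edgeR's quasi-likelihood test with sex in the model, Benjamini-Hochberg adjustment over all tested genes). Over all tested genes 0.641% were called, 0.443% higher and 0.198% lower. Of the 28, 18 had a positive and 10 a negative log2 fold change, with a median of 0.08, against a median of 0.00 over all tested genes. An unadjusted p under 0.05 was found for 4 of the 28, against 12.2% of all tested genes. With 10 libraries the intervals of the mitotic genes were wide, and a difference of 2-fold in either direction lay within that of Mki67 (-1.95 to 2.83 on the log2 scale).

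The gene that changed was Ccnd2 (chromosome 6, 127125779 to 127151048), whose product pairs with CDK4 and CDK6 and is known in mice for driving cardiomyocyte cycling when made in excess. Its level was 94.4, 134, 132, 136 and 88.0 CPM in Epac1-PLN replicates 1 to 5, and 78.1, 76.7, 108, 89.8 and 93.5 CPM in wildtype replicates 1 to 5. The groups overlapped, but within each sex they did not. The 3 Epac1-PLN females lay above the 3 wildtype females, and the 2 Epac1-PLN males above the 2 wildtype males. It was the 1 gene of the 28 for which this held in both sexes, against 5.27% of all tested genes. Ccnd2 averaged 117 ± 23.7 CPM in the Epac1-PLN group and 89.1 ± 12.6 CPM in wildtype cells (SD, n = 5 each), a log2 fold change of 0.38 ± 0.07 (SE, adjusted p = 0.0383, edgeR). The call held in 7 of 18 alternative analyses, with adjusted p-values of 0.000286 to 0.296, and the log2 fold change stayed between 0.33 and 0.47. It was lost without each of Epac1-PLN replicates 1, 2 and 3 and each of the 5 wildtype replicates (adjusted p = 0.0521 to 0.113, edgeR), without the sex term (adjusted p = 0.296, edgeR), with females alone (adjusted p = 0.272, edgeR) and with a replicate block (adjusted p = 0.0950, edgeR).

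Of the other G1 regulators, Cdk4 was at 44.2 ± 2.64 CPM in the Epac1-PLN group and 45.5 ± 3.78 CPM in wildtype cells, a log2 fold change of -0.04 (95% interval -0.20 to 0.12). Cyclin D1 (Ccnd1) stood at 30.5 ± 10.1 CPM in Epac1-PLN and 33.8 ± 11.1 CPM in wildtype cells, and cyclin D3 (Ccnd3) at 41.2 ± 9.98 and 34.4 ± 4.85 CPM in the same order. Neither passed the test (log2 fold changes -0.14 and 0.25, adjusted p = 0.919 and 0.514, edgeR). Without Epac1-PLN replicate 4 the log2 fold changes were -0.36 and 0.11.

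Among the CDK inhibitors, Cdkn1a, a target of the p53 pathway that halts the cycle, had the smallest unadjusted p. Its level was 10.5, 20.4, 14.0, 41.4 and 16.4 CPM in Epac1-PLN replicates 1 to 5, and 7.71, 7.70, 15.5, 17.3 and 13.8 CPM in wildtype replicates 1 to 5. The groups overlapped, and Epac1-PLN replicate 4 was about 2 times the next highest library. The log2 fold change was 0.74 ± 0.26 (SE) and did not pass the adjusted threshold (unadjusted p = 0.0187, adjusted p = 0.282, edgeR). Without Epac1-PLN replicate 4 it was 0.42 (adjusted p = 0.336, with 6.77e-07 to 0.745 over all 18 alternatives, edgeR). Cdkn1b was at 41.5, 48.8, 41.6, 34.1 and 37.6 CPM in the Epac1-PLN libraries and at 49.5, 58.0, 41.6, 57.2 and 37.3 CPM in the wildtype libraries, overlapping, with a log2 fold change of -0.25 (adjusted p = 0.480, edgeR). Cdkn1c, an imprinted gene, had a log2 fold change of 0.19 (adjusted p = 0.825, edgeR), and of -0.01 without Epac1-PLN replicate 4.

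Of the E, A and B cyclins and their kinases, none passed the test. Ccne1 was at 2.15 ± 0.501 CPM in Epac1-PLN and 1.82 ± 0.432 CPM in wildtype cells, and Cdk2 at 11.2 ± 1.56 CPM in Epac1-PLN and 11.0 ± 0.910 CPM in wildtype cells. Ccna2, which acts in the S and G2 phases, had a log2 fold change of 0.35 with all libraries and of -1.17 without Epac1-PLN replicate 4 (95% intervals -1.67 to 2.37 and -2.31 to -0.02). For Cdk1, the kinase of mitotic entry, the values were -0.05 and -0.83. Ccnb2 (cyclin B2), below the filter, was at 0.742, 0.269, 0.450, 3.27 and 0.0833 CPM in Epac1-PLN replicates 1 to 5, and at 0.666, 0.909, 0.873, 0.583 and 0.234 CPM in wildtype replicates 1 to 5. The level of Ccnb2 in Epac1-PLN replicate 4 again lay above all other libraries, and the other libraries of the 2 groups overlapped.

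None of the 10 genes of replication passed the test. Mcm4 had the smallest unadjusted p of the helicase subunits. It was at 7.23, 8.26, 7.20, 10.3 and 7.33 CPM in Epac1-PLN replicates 1 to 5, and at 8.56, 9.23, 11.8, 9.97 and 9.37 CPM in wildtype replicates 1 to 5. All Epac1-PLN libraries but replicate 4 lay below every wildtype library. The log2 fold change was -0.28 ± 0.12 (SE), not past the threshold (unadjusted p = 0.0332, adjusted p = 0.348, edgeR), and none of 18 alternatives called it. The other subunits, Mcm2, Mcm3, Mcm5, Mcm6 and Mcm7, had log2 fold changes of -0.20 to 0.28. Without Epac1-PLN replicate 4 they were at -0.41, -0.30, -0.18, -0.52 and 0.00 in that order. Pcna was at 17.2, 18.5, 16.2, 19.7 and 16.7 CPM in the Epac1-PLN libraries and at 16.3, 17.5, 19.4, 16.6 and 17.6 CPM in the wildtype libraries, overlapping, and its log2 fold change was 0.02 (95% interval -0.17 to 0.20). The enzymes of nucleotide supply, Rrm1, Rrm2 and Tyms, had log2 fold changes of 0.10, -0.10 and -0.11, and none passed the test. Without Epac1-PLN replicate 4 these were 0.06, -0.36 and -0.43.

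Cenpf, which encodes a large protein of the kinetochore known in mouse heart muscle also for its part in the microtubule network, behaved unlike the other mitotic genes. Its level was 35.2, 41.4, 29.7, 17.1 and 27.3 CPM in Epac1-PLN replicates 1 to 5, and 11.0, 13.9, 23.6, 22.5 and 14.3 CPM in wildtype replicates 1 to 5. Here Epac1-PLN replicate 4 was the lowest Epac1-PLN library, and the other 4 lay above every wildtype library. Cenpf was at 1.53 CPM per kilobase on average, the highest level of the 12 genes of mitosis. The log2 fold change was 0.85 ± 0.26 (SE), not past the threshold with all libraries (unadjusted p = 0.00936, adjusted p = 0.211, edgeR). Without Epac1-PLN replicate 4 it was 1.04 ± 0.18 and passed (adjusted p = 0.0360, edgeR). Since that library was the lowest of its group for Cenpf, its removal was bound to raise the fold change. With all libraries, DESeq2 (adjusted p = 0.0168) and the edgeR fit with no filter called Cenpf too. In all, 3 of 18 alternatives called it, with adjusted p-values of 1.21e-11 to 0.753.

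The remaining mitotic genes had wide intervals. Kif11, the motor that separates spindle poles, had a log2 fold change of 0.51, Top2a of 0.46, Mki67 of 0.44 and Tpx2, a spindle assembly factor, of 0.12. Aurka, the spindle pole kinase that TPX2 activates, had -0.40 and Ube2c -0.11. None of these passed the test (adjusted p = 0.732 to 0.975, edgeR). Without Epac1-PLN replicate 4 the log2 fold changes were -0.09 for Kif11, -0.95 for Top2a, -0.96 for Mki67 and -0.94 for Tpx2. They were -0.97 for Aurka and -0.54 for Ube2c, and again none passed (adjusted p = 0.156 to 0.943, edgeR). Below the filter, Birc5 was at 0.185, 0.336, 0.385, 2.13 and 0.0833 CPM in Epac1-PLN replicates 1 to 5, and at 0.238, 0.770, 0.491, 0.324 and 0.156 CPM in wildtype replicates 1 to 5. Plk1 was at 0.371, 0, 0.193, 1.20 and 0 CPM in the Epac1-PLN libraries and at 0.0951, 0.0700, 0.437, 0.194 and 0.234 CPM in the wildtype libraries. Bub1 was at 0.278, 0, 0.514, 2.13 and 0 CPM in the Epac1-PLN libraries and at 0.143, 0.700, 0.600, 0.194 and 0 CPM in the wildtype libraries. In all 3, replicate 4 was the highest Epac1-PLN library and the other libraries of the 2 groups overlapped.

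**Figure D4:**
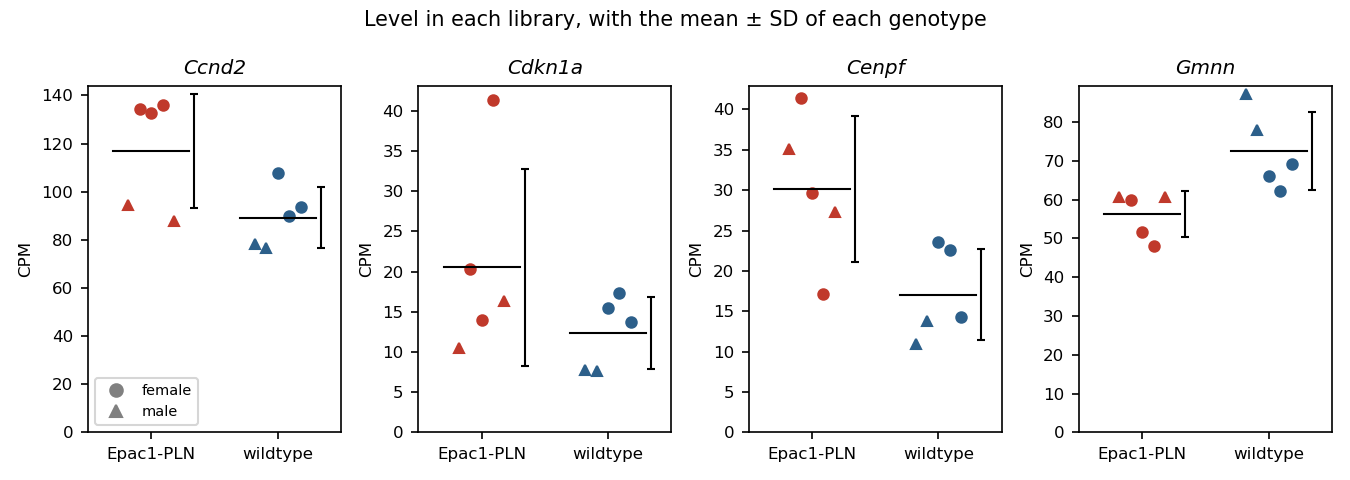
CPM of Ccnd2, Cdkn1a, Cenpf and Gmnn in each library, Epac1-PLN left of wildtype, with circles for females and triangles for males, and the mean ± SD of each genotype (n = 5). Ccnd2 of the Epac1-PLN libraries lies above that of the wildtype libraries of the same sex, and Gmnn below.

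Leaving out Epac1-PLN replicate 4 turned the direction of the set. That library was singled out because it was the highest in 23 of these 28 genes. Its removal was therefore bound to lower most of their fold changes, and to raise that of Cenpf, for which it was the lowest Epac1-PLN library. The values below only describe its weight. Leaving out wildtype replicate 2 or wildtype replicate 3 instead gave medians of 0.21 and 0.12 over the tested genes. Of the 28 genes tested both ways, 7 then had a positive and 21 a negative log2 fold change, with a median of -0.25, against -0.01 over all genes and 51.2% of all genes negative. Among the 7 tested genes of mitosis the median was 0.44 with all libraries and -0.94 without that library, with 6 of 7 negative. For the 6 helicase subunits it was 0.03 and -0.33, and for the 4 tested E, A and B cyclins and kinases 0.13 and -0.44. Without that library 2 of the 28 were called, Ccnd2 and Cenpf, both higher, against 0.59% called higher and 0.779% in all of 12703 tested genes. The groups then did not overlap for Mcm2, Mcm4, Cenpf and Aurka, against 4.13% of all tested genes, and Mcm2, Mcm4 and Aurka were lower in all 4 remaining Epac1-PLN libraries (log2 fold changes -0.41, -0.37 and -0.97, adjusted p = 0.259, 0.188 and 0.156, edgeR). With all libraries 0 of the 28 were without overlap, against 2.75% of all tested genes. Marker lists shifted too. Of 9 endothelial markers, 8 had a positive log2 fold change with all libraries (median 0.13) and 2 without that library (median -0.10), and of 9 fibroblast markers the numbers were 4 and 1 (medians -0.10 and -0.25). Their part in these values was not tested.

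**Figure D5:**
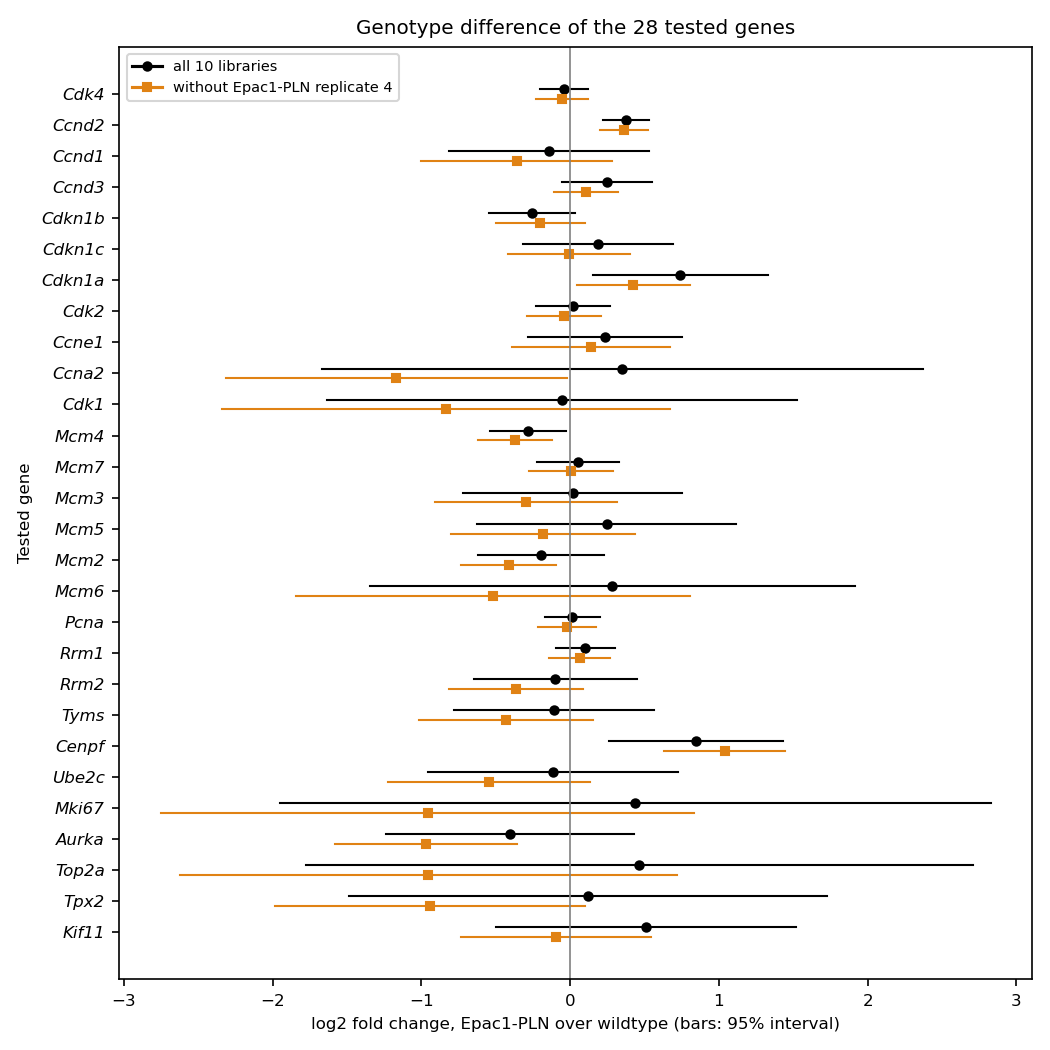
Log2 fold change of Epac1-PLN over wildtype for the 28 tested genes, with 95% intervals, for all 10 libraries (black circles) and without Epac1-PLN replicate 4 (orange squares). Most mitotic and cyclin genes shift to the left when that library is left out, while Ccnd2 stays near 0.38 and Cenpf moves to 1.04.

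A longer list of 132 other cell cycle genes, covering E2F and retinoblastoma factors, origin licensing, polymerases, further cyclins and checkpoint genes, gave few differences as well. Of these, 101 were tested, 46 with a positive and 55 with a negative log2 fold change, and 0 were called higher and 1 lower, against 0.443% and 0.198% of all tested genes. The called gene was Gmnn, which encodes geminin, the inhibitor that keeps an origin from being licensed again. It was at 60.7, 60.0, 51.7, 47.9 and 60.7 CPM in Epac1-PLN replicates 1 to 5, and at 87.3, 77.9, 66.1, 62.2 and 69.3 CPM in wildtype replicates 1 to 5. The groups did not overlap, as for 2.75% of all tested genes. Gmnn averaged 56.2 ± 5.97 CPM in the Epac1-PLN group and 72.6 ± 10.1 CPM in wildtype cells, a log2 fold change of -0.36 ± 0.07 (SE, adjusted p = 0.0496, edgeR), and the call held in 5 of 18 alternatives (adjusted p-values 0.0024 to 0.618). Next by p among the lower genes were Ccnh, a subunit of the CDK-activating kinase (-0.26), and Gadd45a, a stress gene (-0.79), with adjusted p = 0.196 and 0.199 (edgeR). Among the higher genes they were Tk1, thymidine kinase (0.43), E2f4, a repressor E2F (0.18), and Atr, the replication checkpoint kinase (0.21), with adjusted p = 0.320, 0.408 and 0.410 (edgeR). Epac1-PLN replicate 4 was the highest library in 33 of the 101 (32.7%), against 19.3% of all tested genes. Within that list the share was 48.1% for mitosis and checkpoints (13 of 27 tested genes), 39.1% for polymerases (9 of 23) and 37.5% for E2F and retinoblastoma factors (6 of 16). It was 15.8% for further cyclins, CDKs and inhibitors (3 of 19) and 12.5% for origin licensing (2 of 16). The origin licensing genes summed to 0.897 times the median of the other libraries in Epac1-PLN replicate 4.

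The sexes were compared in the same model, and again Ccnd2 was the 1 cell cycle gene called, higher in females. Over all tested genes 0.34% were called, 0.15% higher in females and 0.19% lower. Ccnd2 averaged 116 ± 21.3 CPM in females (n = 6) and 84.3 ± 8.40 CPM in males (n = 4), a log2 fold change of 0.44 ± 0.07 (SE, adjusted p = 0.0185, edgeR). The 3 Epac1-PLN females lay above the 2 Epac1-PLN males, and the 3 wildtype females above the 2 wildtype males, which held for no other of the 28 genes and for 4.6% of all tested genes. Over all females and all males, 0 of the 28 genes were without overlap, against 2.08% of all tested genes. The call of Ccnd2 held in 11 of 15 alternatives and was lost without Epac1-PLN replicate 1 and without wildtype replicates 1, 2 and 3 (adjusted p = 0.0525 to 0.108, edgeR).

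Cdkn1a was higher in females by 0.96 ± 0.28 (SE) on the log2 scale, at 20.4 ± 10.6 CPM in females and 10.6 ± 4.10 CPM in males, which did not pass the threshold (unadjusted p = 0.00621, adjusted p = 0.283, edgeR). Of 15 alternatives 2 called it, DESeq2 (adjusted p = 0.0125) and the edgeR fit with no filter, with adjusted p-values of 3.02e-11 to 0.627 over the 15. The log2 fold change was 0.69 to 1.10 over them. Epac1-PLN replicate 4, the highest of all libraries for Cdkn1a, was a female, and the fit without it gave no call. For Cdkn1c the females were at 8.40, 12.9 and 18.3 CPM (Epac1-PLN replicates 2, 3 and 4) and 7.86, 10.2 and 11.8 CPM (wildtype replicates 3, 4 and 5), and the males at 11.0 and 19.1 CPM (Epac1-PLN replicates 1 and 5) and 15.1 and 18.4 CPM (wildtype replicates 1 and 2). The sexes overlapped, and the log2 fold change was -0.48 ± 0.23 (SE, adjusted p = 0.499, edgeR). Mcm4 had 0.23 ± 0.12 (adjusted p = 0.529, edgeR). Of the 28 genes, 20 had a positive log2 fold change of females over males (median 0.08, against 0.01 over all tested genes), but without Epac1-PLN replicate 4, a female, 10 did (median -0.12).

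The genotype difference was also compared between the sexes, as a genotype-by-sex term whose positive value means a larger difference of Epac1-PLN over wildtype in females. None of the 28 genes was called, nor any of the 12629 tested genes (0%), by edgeR's quasi-likelihood test. At an unadjusted p under 0.05 there was 1 of the 28, Ube2c (1.68, adjusted p = 0.993, edgeR), against 3.75% of all tested genes, and DESeq2 called 0 of the 28. The term was positive for 25 of the 28, with a median of 0.58 on the log2 scale, against 0.00 over all tested genes. It was largest for Mki67 (2.77), Ccna2 (2.50), Top2a (2.12) and Tpx2 (2.05), with intervals that reached from below 0 to above 5. Without Epac1-PLN replicate 4 it was positive for 21 of 28, with a median of 0.24. The 9 endothelial markers all had a positive term with that library (median 0.70) and without it (median 0.38), and their part in the values of the cell cycle genes was not tested.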

How the data were processed

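The authors deposited raw read counts per gene for the 10 libraries. Per the labels' protocols, libraries were TruSeq preparations of total RNA. The aligner STAR 2.3.0 and the counter HTSeq 0.5.4 are listed in the submitters' processing notes, beside CASAVA 1.8.2, FastQC 0.10.0, DESeq, DESeq2 and the build mm10. No source used here gives their settings, the annotation release or the use of strand. A second deposited table, of normalized values, was not used here. Totals were 10632224 to 20983754 counts. Floors of 3 counts cover counting error only, whereas the 95% intervals of fold changes come from the fit and include the spread between libraries.

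Counts of the deposited table were fitted over all 10 libraries with edgeR 4.0.16 in R 4.3.3 (filterByExpr on genotype, TMM factors, robust quasi-likelihood F test, Benjamini-Hochberg adjustment at 0.05). The model held sex and genotype, and a second model added the genotype-by-sex term. Standard errors are the absolute log2 fold change over the square root of F. Exon lengths came from GENCODE M21 by gene identifier. Promoter windows are RefSeq's. The fit was tested on simulated data. Alternatives were RLE factors, no filter, a mean of at least 1 CPM, DESeq2 1.42.0, limma-voom (limma 3.58.1), a model without sex, the females alone, a replicate block, and the removal of each library in turn.

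The members and lists were chosen with earlier results of these data known. Library values are given by rule for the 4 members with the smallest p for genotype and for sex, the 4 highest and 4 lowest per kilobase and every called member. The rule further takes called genes of the longer list with the 3 smallest p per direction, Rapgef3 and 3 genes of each marker list. Of the markers, Adgre1, Hbb-b1 and Hbb-b2 had no row by these symbols.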

Additional observations from a re-analysis of the deposited data

Results flagged for a closer look

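Each of the 35 genes was examined in each genotype for a library far from the other 4 of its group, 70 groups of 5 libraries in all, and 15 such values were found. For normally distributed values chance alone gives about 1 in 20 such groups. Many of these counts are low, and the genes are not independent of each other. The share of such values over all tested genes was not computed. Over all tested genes Epac1-PLN replicate 4 was the highest library in 19.3% and the lowest in 16.9%.

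Of these, 13 were the value of Epac1-PLN replicate 4, the highest of the 5 Epac1-PLN libraries. Among genes of mitosis they were the CPM of Mki67 (15.54), Top2a (12.47), Kif11 (4.668), Tpx2 (4.335), Cdc20 (2.934), Aurkb (2.401), Birc5 (2.134), Bub1 (2.134) and Aurka (1.734). Among cyclins they were the CPM of Ccnd3 (58.49), Ccna2 (6.135), Ccnb2 (3.268) and Ccnb1 (0.4001). The gap to the next library was 0.731 to 0.886 of the range of the group. Values of the same library for markers of other cell types stand in the report beside these genes, and their part in the values was not tested.

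The other 2 were the value of wildtype replicate 2, the highest of the 5 wildtype libraries, for Mcm7 (7.905 CPM) and Ccnb1 (0.3498 CPM). Ccnb1 there rests on 5 counts.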

How the results depend on the processing

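Of the 28 cell cycle genes, 1 was called with genotype. The count was 3 with no filter, 2 with DESeq2, 0 with no sex term, 0 with females alone, and 0 to 2 with 1 library left out. Over all tested genes it was 81, against 498 with no filter, 265 with DESeq2, 37 with no sex term, 4 with females alone and 14 to 103 with 1 library left out. Of the longer list 1 was called, and 5 with no filter, 2 with DESeq2, 0 with a mean of at least 1 CPM, no sex term or females alone, and 0 to 1 with 1 library left out. With sex, 1 of the 28 and 43 of all genes were called, against 3 and 521 with no filter, 2 and 158 with DESeq2, and 0 to 1 and 18 to 93 with 1 library left out. For the genotype-by-sex term 0 of the 28 were called, and 5 with no filter. The cause of these shifts was not tested. The median log2 fold change was 0.08 over the 28 genes, -0.06 over the same number with limma-voom, 0.33 with females alone, and 0.17 over all 35 with no filter. With 1 library left out, 28 to 30 of the 35 genes were tested, and their median was -0.30 (29 genes, without Epac1-PLN replicate 4) to 0.24 (30 genes, without Epac1-PLN replicate 5). No result called by edgeR with all libraries, sex in the model and the filter changed sign under any alternative run. Counted as pairs of a gene and an alternative, 24 genotype and 4 sex results lost a call, and 6 genotype, 3 sex and 5 genotype-by-sex results gained one. The lost genotype calls were all of Ccnd2 or Gmnn, and the lost sex calls all of Ccnd2. Genotype calls were gained by Cdkn1a, Cenpf and Gadd45a, and sex calls by Cdkn1a and Cdkn1c. The genotype-by-sex calls were all gained with no filter.

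Replicate numbers are shared between the genotypes in the labels. Deviations of same-numbered libraries from their group means correlated at 0.352, -0.30, 0.14, -0.214 and 0.102 over genes, with mixed signs. Without such values for libraries of unlike numbers, these correlations cannot decide whether the numbers pair the libraries. With the number as a replicate block, 2 genes were called over all, 0 of the 28 and 0 of the longer list, and Ccnd2 had a log2 fold change of 0.38 (adjusted p = 0.0950, edgeR).

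Depth limits the 7 untested genes most, since Ccnb1 rests on 17 counts in all.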
